A study of Mus musculus with 21 samples.

Results

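The comparison described here is the D4H8 to D5 step of motor neuron (MN) differentiation in cultures treated with GSKJ4, a cell-permeable inhibitor of the H3K27 demethylases Kdm6a and Kdm6b. It was taken by label from bulk poly(A) RNA-seq of mouse embryonic stem cells (ESCs) directed toward MNs, as the 3 GSKJ4-treated D5 libraries against the 3 GSKJ4-treated D4H8 libraries, 6 of the 21 libraries of the series. All cultures were wild-type C57BL/6 ESCs that had been kept on mitomycin-treated mouse embryonic fibroblasts, formed embryoid bodies, and received 1 µM retinoic acid (RA) with 0.5 µM of the Smoothened agonist SAG and, from D4, 5 µM of the γ-secretase inhibitor DAPT. D4H8 stands for day 4 plus 8 h. The treated D4H8 cultures had GSKJ4 for 1 day from D3H8, and the treated D5 cultures for 1 day from D4; the GSKJ4 dose of these cultures was not given in the sources used here. Each group therefore had its own treatment, the step is not one culture followed in time, and stage cannot be told apart from the window of exposure. The 6 untreated D4H8 and D5 libraries, 3 each, carry the same differentiation factors and serve as the comparison step. The protocol is the one used to obtain the hypaxial motor column, whole embryoid bodies were sequenced without sorting, and all libraries derive from a single wild-type background.

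In the ventral spinal cord, Sonic hedgehog and RA pattern neural progenitors into an Olig2-positive MN progenitor domain. These cells then pass through a proneural phase driven by the bHLH factors Neurog2 and Neurog1, leave the cell cycle, and switch on the Isl1, Lhx3 and Mnx1 homeodomain factors, which in turn activate cholinergic and axonal genes; Notch signaling holds progenitors in the undifferentiated state. Kdm6a and Kdm6b remove the repressive H3K27me3 mark that PRC2 lays down on silent developmental genes, and Kdm6b is the family member that the study follows during MN differentiation.

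The treated libraries held 15705324 to 18798740 counts each. Differences were tested with edgeR's quasi-likelihood test on 12 libraries (both steps, 4 groups of 3), a gene being called at a Benjamini-Hochberg adjusted p under 0.05; levels are CPM (counts scaled to the total of the library after TMM scaling), always listed for replicates 1, 2 and 3, and fold changes are D5 over D4H8. GSKJ4-treated D5 replicate 2 stood apart: 39381 of the 55400 listed genes were at 0 in it, against 29339 to 32805 in the other 20 libraries, and only 790 genes had 1 to 9 counts, against 6444 to 8520. Of the 12868 genes with a mean of at least 50 counts in the other 2 treated D5 libraries, 197 were listed at 0 in this one, the highest with a mean of 186 counts. Among called genes, 26 of those higher and 50 of those lower at D5 were at 0 in it. GSKJ4-treated D4H8 replicate 2 had 5.33% of its counts from mitochondrial genes, against 1.71% to 2.42% in the other 5 treated libraries. The libraries of a group are labeled as biological replicates, and the study describes the experiments of a stage as biologically independent. Pearson correlations of log2 CPM were 0.951 to 0.971 within the treated D4H8 group, 0.907 to 0.972 within the treated D5 group and 0.858 to 0.954 between the groups.

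Between the treated groups, 2013 of 17408 tested genes were higher at D5 (11.6% of those tested) and 1742 were lower (10.0%). Of these, 1511 rose and 764 fell at least 2-fold. The CPM of the treated groups did not overlap, in either direction, for 5865 of the 17408 tested genes. The median log2 fold change was -0.05 over all tested genes, 1.56 among called risers and, in absolute size, 0.94 among called fallers. Without D5 replicate 2 the counts were 2207 higher and 1615 lower, and 1808 of the original risers and 1301 of the original fallers were still called. D5 replicate 1 weighed more on the fallers: without it 853 genes were lower, 820 of them from the original 1742, and 1417 were higher. With the 6 treated libraries alone in the fit, 1162 genes were higher and 680 lower. In bulk samples, fewer cells of a type and less RNA per cell cannot be told apart, which holds for every gene below.

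**Figure D1:**
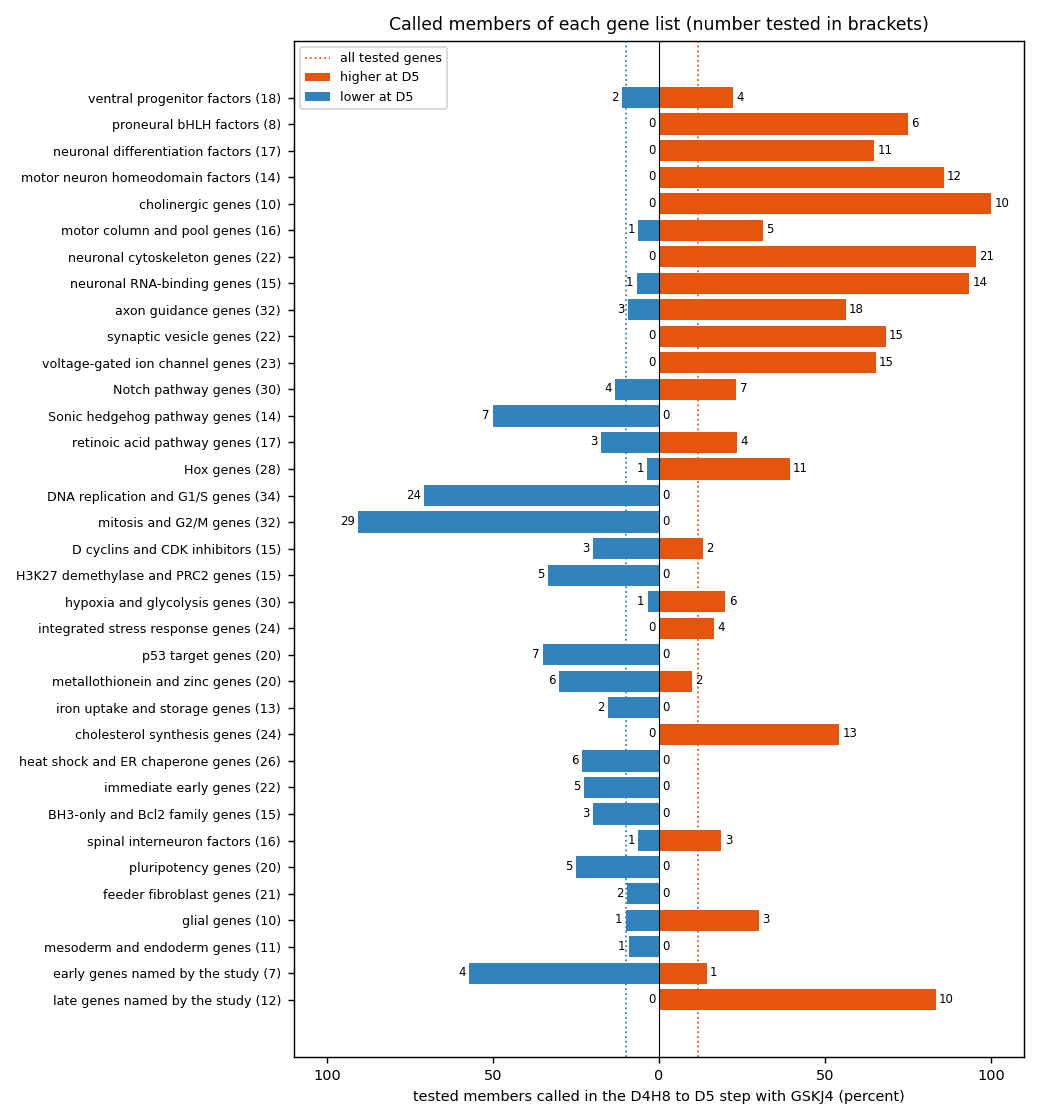
Share of the tested members of each gene list (in percent, number tested in brackets) that were called higher (right, orange) or lower (left, blue) in the GSKJ4-treated D4H8 to D5 step, with the number of called members beside each bar; dotted lines mark the shares over all tested genes, 11.6% and 10.0%. Neuronal lists lie almost wholly to the right, and the replication and mitosis lists wholly to the left.

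The transcription factors and enzymes that define MNs rose strongly. Of 14 tested MN homeodomain factors and partners, 12 were higher and none was lower, with a median log2 fold change of 2.77. In the untreated step 1550 genes were higher (8.90% of those tested) and 877 lower (5.04%), and 9 of these 14 were higher (median 1.68). *Isl1*, a LIM homeodomain factor of newborn MNs, stood at 32.0, 20.6 and 12.3 CPM in treated D4H8 and at 247, 176 and 199.5 CPM in treated D5. The groups did not overlap, and the step was 9.59-fold (log2 fold change 3.26 ± 0.30, SE; adjusted p = 8.0e-06). *Lhx3*, its partner in the MN-specifying complex, went from 3.62, 0.698 and 2.54 CPM to 34.3, 29.4 and 35.7 CPM. That was a 14.4-fold rise (adjusted p = 1.7e-05) from a group in which replicate 2 was lowest. *Lhx4*, a close relative of *Lhx3*, rose 8.96-fold, *Isl2* 7.26-fold, and *Onecut3*, a factor of newborn MNs, 7.51-fold. *Mnx1*, which maintains MN identity, had 21.7, 10.4 and 29.9 CPM at D4H8 and 55.0, 46.1 and 75.6 CPM at D5. Its rise was smaller, 2.85-fold (log2 1.51 ± 0.32, adjusted p = 0.00363), and its groups did not overlap either. *Ldb1* and *Lmo4*, cofactors of LIM factors, were the members not called, at log2 fold changes of 0.58 and -0.12.

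All 10 cholinergic genes were higher at D5, with a median log2 fold change of 3.20, and 9 of 10 were higher in the untreated step (median 3.05). *Chat*, which synthesizes acetylcholine, had 3.14, 1.33 and 1.42 CPM at D4H8 and 49.5, 46.0 and 52.2 CPM at D5. The treated D5 libraries lay within a narrow band far above all D4H8 libraries, a 24.9-fold step (log2 4.64 ± 0.32, adjusted p = 9.7e-07). *Slc18a3*, the vesicular acetylcholine transporter, had 15.1, 4.50 and 4.31 CPM and then 127, 114 and 122 CPM, 15.1-fold (adjusted p = 1.5e-05). The vesicular transporter-like gene *Slc10a4* rose 21.8-fold (its sequence is shared with *Gm5868*), and the nicotinic receptor subunit gene *Chrnb2*, which overlaps *Adar* on the other strand, 8.61-fold. Per length, mean FPKM in treated D5 was 53.5 ± 7.50 for *Isl1*, 26.9 ± 7.25 for *Mnx1*, 11.2 ± 1.08 for *Lhx3*, 10.7 ± 0.755 for *Chat* and 51.4 ± 1.91 for *Slc18a3* (SD, n = 3), so all 5 defining MN markers were present at D5. At treated D4H8 the same markers had mean FPKM of 5.42 ± 2.44, 9.42 ± 5.05, 0.767 ± 0.503, 0.417 ± 0.221 and 3.31 ± 2.58 in that order. Of 12 tested genes that the study names as late MN genes, 10 were higher and none was lower (10 and 0 in the untreated step), and of 7 that it names as early genes, 1 was higher and 4 were lower (0 and 6). These names come from work on the same samples and are not independent evidence of a direction.

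Most proneural bHLH factors rose in treated cultures. Of 8 tested members 6 were higher, 2 were not called and none was lower (median log2 fold change 2.04), against 1 higher and 2 lower in the untreated step (median -0.26); the difference between the steps passed its own test for 1 of the 8, *Neurog2*. *Neurog2*, the main proneural driver of MN birth, had 7.41, 3.68 and 8.32 CPM at treated D4H8 and 29.7, 39.4 and 43.1 CPM at treated D5. Every D5 library was above every D4H8 library, and the rise was 5.76-fold (log2 2.53 ± 0.30, adjusted p = 5.2e-05), while in untreated cultures the log2 fold change was -0.83 (adjusted p = 0.0562). *Neurog1* had 13.2, 1.33 and 4.42 CPM and 31.1, 14.8 and 27.5 CPM. Its treated rise, 3.86-fold with an adjusted p of 0.0211, was no longer called without D5 replicate 1 (adjusted p = 0.0743), without treated D4H8 replicate 3 or in the fit of the 6 treated libraries alone (adjusted p up to 0.0783 over the alternatives). *Neurod1*, which acts after the neurogenins, had 23.4, 5.90 and 7.14 CPM at D4H8, where replicate 1 was the highest, and 72.6, 62.9 and 65.9 CPM at D5, a 5.53-fold rise (adjusted p = 0.00101). *Nhlh2* and *Nhlh1*, bHLH factors of newly born neurons, rose 10.1-fold and 4.36-fold. The E-box CAGATG (searched on both strands), which these factors recognize, lay in the RefSeq promoter windows of 2 of the 6 risers, against 17.2% of all promoters, and CAGCTG in those of 2 of 6, against 16.3%. A gene counted if any of its windows matched, whereas the share of all promoters is per single window. These are unlike measures, here and for each motif below.

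Most progenitor factors were not called. Of 18 ventral progenitor factors 4 were higher (22.2%, against 11.6% of all tested genes) and 2 were lower (11.1%, near the 10.0% of all). The other 12 were not called (median 0.40), and in the untreated step 1 was higher and 7 were lower (median -0.96). None was lower in the treated step with the 6 treated libraries alone, without treated D5 replicate 1 or without treated D4H8 replicate 3. *Olig2*, which defines the MN progenitor domain, stood at 20.5, 5.07 and 25.3 CPM in treated D4H8 and at 29.2, 34.3 and 50.3 CPM in treated D5. Replicate 2 was low at D4H8, the groups did not overlap, and the log2 fold change of 1.16 ± 0.42 did not pass the test (adjusted p = 0.0626). In untreated cultures *Olig2* fell, by a log2 fold change of -2.17 (adjusted p = 0.00299). *Nkx6-1*, a homeodomain factor of ventral progenitors that MNs also keep, had 95.0, 23.9 and 30.9 CPM and then 357, 191 and 253 CPM. It rose 5.34-fold (adjusted p = 0.00179). *Pax6*, which patterns the same domain, had 23.9, 39.0 and 37.2 CPM and 13.2, 22.6 and 17.1 CPM. It was 1.89-fold lower at D5 (adjusted p = 0.0288), a call lost without treated D5 replicate 1 or 3 or treated D4H8 replicate 2 or 3 (adjusted p up to 0.122). *Irx3*, which overlaps *Irx3os* on the other strand, was 1.9-fold higher (adjusted p = 0.0374) and *Nkx2-9* 2.33-fold lower (adjusted p = 0.0401). The *Irx3* call was lost without any 1 of the treated D5 libraries, untreated D5 replicate 2 or 3 or untreated D4H8 replicate 2 (adjusted p up to 0.136). The *Nkx2-9* call was lost without treated D5 replicate 1 or 2, treated D4H8 replicate 1 or 3, untreated D4H8 replicate 2 or 3 or untreated D5 replicate 3 (up to 0.208). The neural stem cell factors *Sox1*, *Sox2* and *Sox3* were not called, at log2 fold changes of 0.15, -0.55 and -0.22.

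**Figure D2:**
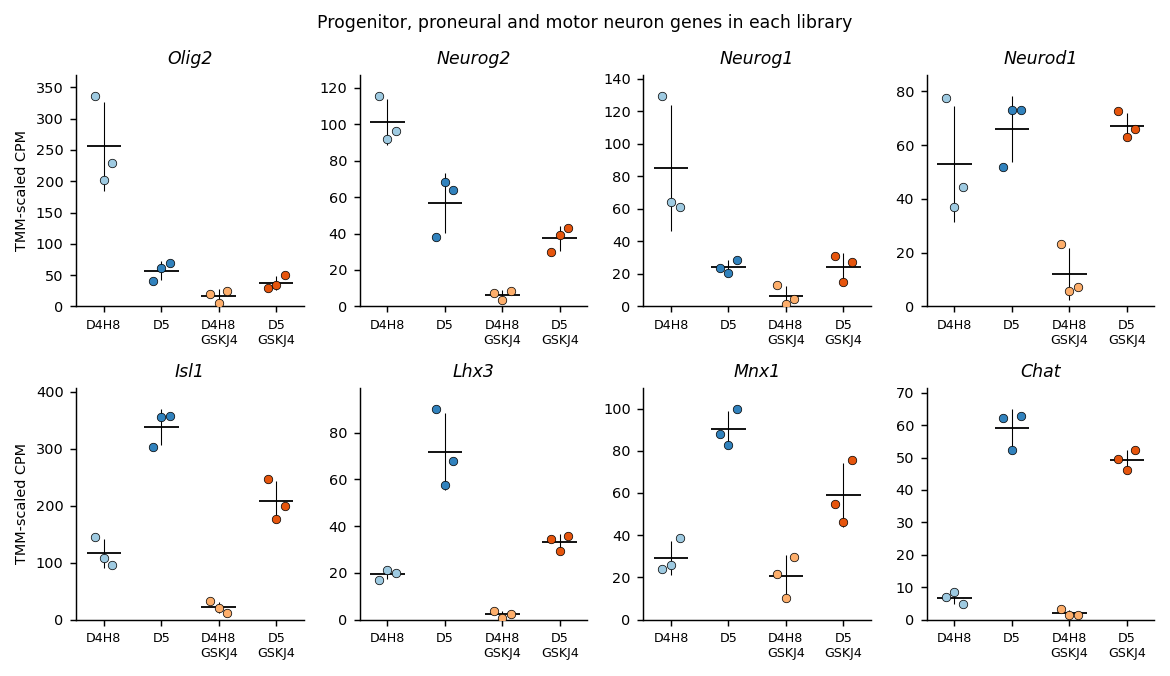
CPM (TMM-scaled, linear axes from 0) of progenitor, proneural and MN genes in each of the 12 libraries of the untreated (blue) and GSKJ4-treated (orange) D4H8 and D5 groups; points are replicates 1 to 3 from left to right, horizontal lines means and vertical lines ± 1 SD. In treated cultures all 8 genes have D5 libraries above the D4H8 libraries, whereas in untreated cultures *Olig2*, *Neurog2* and *Neurog1* have lower D5 libraries. Of the 17408 tested genes, 5865 had no overlap of the treated groups in either direction.

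Genes of general neuronal differentiation and of the neuronal cell body rose as a group. Among 17 neuronal differentiation factors 11 were higher and none was lower (median 1.81). *Myt1*, a zinc finger factor of new neurons, had 41.8, 22.1 and 11.6 CPM and then 325, 206 and 235 CPM, 10.2-fold (adjusted p = 5.1e-05). Its relative *Myt1l* rose 21.2-fold, the repressor gene *Scrt1* 10.3-fold and *Ebf1*, a factor of postmitotic neurons, 9.01-fold. Of 22 neuronal cytoskeleton genes 21 were higher (median 3.02), and their summed level was 1602 to 3474 CPM at treated D4H8 and 13880 to 21480 CPM at treated D5. *Nefl*, the light neurofilament chain, which overlaps *Nefm* on the other strand, had 73.4, 64.9 and 27.2 CPM and 1048, 698 and 627 CPM. *Mapt*, encoding tau, rose 14.4-fold, and the microtubule regulators *Stmn3* and *Stmn4* rose 15.2-fold and 14.7-fold. *Nefh*, the heavy chain of mature axons, was the member not called (log2 -0.57).

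Of 15 neuronal RNA-binding genes 14 were higher and 1 was lower (median 2.69). The splicing regulator *Rbfox1* had 2.85, 2.28 and 0.826 CPM at D4H8 and 46.2, 50.5 and 36.2 CPM at D5, a 22.3-fold rise (adjusted p = 8.0e-06); *Celf3* rose 10.2-fold and *Elavl4*, a marker of postmitotic neurons, 8.14-fold. The member that fell was *Ptbp1*, the repressor of neuronal splicing, at a log2 fold change of -1.13, while its neuronal paralog *Ptbp2* rose (log2 0.92). Of 32 axon guidance genes 18 were higher (56.2%, against 11.6% of all tested genes) and 3 lower (9.38%, near the 10.0% of all), with a median of 1.19. *Cntn2*, an adhesion molecule of MN axons, had 181, 71.9 and 64.1 CPM and then 1733, 1378 and 1630 CPM, 14.9-fold (adjusted p = 5.3e-06). *Slit2*, a ligand of Robo receptors, rose 13.2-fold, *L1cam* 14.0-fold and the netrin receptor gene *Dcc* 10.9-fold; the guidance receptor genes *Unc5b* and *Plxnd1* and the ligand gene *Efnb2* were the 3 called lower (log2 -0.95, -1.19 and -0.84), a count that was 0 without treated D4H8 replicate 1 and 1 without treated D5 replicate 1 or with the 6 treated libraries alone. Of 22 synaptic vesicle genes 15 were higher and none lower (median 1.91); *Snap25*, a SNARE protein, had 5.75, 3.49 and 2.01 CPM and then 86.7, 48.0 and 42.4 CPM. Of 23 tested voltage-gated ion channel genes 15 were higher and none lower (median 1.82), among them the sodium channels *Scn3a* (13.8-fold) and *Scn9a* (11.1-fold). In the untreated step 19 cytoskeleton, 12 RNA-binding, 16 axon guidance, 18 synaptic vesicle and 14 ion channel genes were higher.

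Of 16 genes of motor columns and pools 5 were higher (31.2%, against 11.6% of all tested genes) and 1 was lower (median 0.29). *Runx1*, expressed in a subset of MNs, had 1.78, 2.16 and 1.30 CPM at D4H8 and 24.6, 20.2 and 8.22 CPM at D5, 10.1-fold (adjusted p = 5.9e-05), with replicate 3 the lowest at D5. *Pou3f1*, a POU factor of limb-innervating and other MNs, rose 6.92-fold, *Bhlhe22* 4.92-fold and *Lhx1* 4.21-fold. *Foxp1*, the organizer of limb-level motor columns, was not called (log2 0.37). Of 28 tested *Hox* genes, which give MNs their level along the body, 11 were higher (39.3%, against 11.6% of all tested genes) and 1 lower (median 0.71). In the untreated step 3 were higher and 1 lower (median 0.40). *Hoxd4* had 19.6, 9.89 and 12.6 CPM at treated D4H8 and then 80.5, 59.2 and 62.5 CPM at treated D5, 4.80-fold (adjusted p = 3.6e-05). *Hoxb6* and *Hoxb8* rose 4.24-fold and 3.25-fold, and *Hoxd3* 7.98-fold; *Hoxd3* shares its transcript with *Gm28230* and overlaps *Haglr* on the other strand. *Hoxb1*, a hindbrain-level gene, was the member that fell (log2 -1.46).

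The genes with the largest rises included some that are not particular to MNs. *Th*, tyrosine hydroxylase of catecholamine synthesis, had the largest rise among genes named by size, from 1.9, 0.761 and 0.708 CPM to 160.1, 145 and 108 CPM, 122-fold (log2 6.92 ± 0.40, adjusted p = 2.6e-07). In untreated cultures its log2 fold change was 4.34, and the difference between steps did not pass the test (adjusted p = 0.0517). *Sncg*, γ-synuclein, had 3.56, 1.08 and 2.01 CPM and then 128, 134 and 77.5 CPM, 50.7-fold. *Bhlhe23*, a bHLH factor of neurons, rose 42.9-fold, and *Gria2*, an AMPA receptor subunit, had 2.61, 3.11 and 1.77 CPM and 107, 29.1 and 39.9 CPM, 23.6-fold with D5 replicate 1 well above the others. *Actl6b*, the neuronal subunit of the BAF chromatin complex, rose 22.1-fold. The other genes of the 12 with the largest rises were *Scml4*, *Klhl35*, *Crp* and *March4*, besides *Chat*, *Rbfox1* and *Slc10a4*. *Crp* spread most within a group, at 33.6, 2.98 and 9.35 CPM in D5. All 12 were also called in the untreated step, at log2 fold changes of 3.12 (*Chat*) to 4.89 (*Bhlhe23*).

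Most genes of the Notch pathway list were not called, with DAPT present in all 4 groups. Of 30 members 7 were higher (23.3%, against 11.6% of all tested genes) and 4 lower (13.3%, against 10.0%), with a median of 0.25. In the untreated step 2 were higher and 7 lower (median -0.39). The list also held *Id4* and *Id3*, inhibitors of bHLH factors that are not ligands or receptors of Notch. *Dll3*, a divergent Delta protein, had 55.3, 7.93 and 14.2 CPM at D4H8 and 119.7, 109.9 and 132 CPM at D5, a 4.66-fold rise (adjusted p = 0.00829). *Mfng*, a fringe glycosyltransferase, rose 4.53-fold, and *Id4*, an inhibitor of bHLH factors, had 1.72, 1.78 and 1.89 CPM and then 26.3, 27.3 and 16.7 CPM, 13.0-fold. *Id3*, of the same family, fell 4.13-fold, from 299, 54.4 and 97.9 CPM to 25.0, 43.4 and 40.9 CPM (adjusted p = 0.00538). The receptors *Notch2* and *Notch3* fell (log2 -1.18 and -0.94), and *Notch1* was not called (log2 -0.09). Without D5 replicate 1, 5 members were higher and 2 lower. Of the direct Notch targets, *Hes5* had 2.19, 0.634 and 0.531 CPM and then 0.486, 0 and 0.596 CPM (log2 -1.61, adjusted p = 0.179), whereas in untreated cultures it fell by a log2 fold change of -4.12. *Hes1* was 1.76-fold lower with an adjusted p of 0.0464 that 10 of the 12 refits without 1 library raised above the threshold. In the 300-base promoter window of RefSeq, TGGGAA, the core recognized by the Notch effector RBPJ, was searched on either strand. It was found for 3 of the 6 called-higher list members with a promoter entry, *Maml3*, *Hey2* and *Id4*. It was found for 0 of 3 called-lower ones, against 25.6% of all 32851 promoters.

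Hedgehog pathway genes fell or were not called. Of 14 members none was higher and 7 were lower (median -0.60); in the untreated step 1 was higher and 7 lower (median -1.03). *Gli2*, a transcriptional effector, had 45.5, 31.6 and 26.0 CPM and then 7.03, 6.69 and 11.9 CPM, 4.02-fold lower (adjusted p = 3.1e-04). *Gli3*, the main repressor of the family, was 2.85-fold lower, and *Gli1*, a target of the pathway, 2.12-fold lower (adjusted p = 0.0313), a call lost without treated D5 replicate 1 or treated D4H8 replicate 1 or 3 (up to 0.121). The receptor *Ptch1*, also a target, had 459.5, 459 and 395 CPM and 284, 245 and 303 CPM, 1.58-fold lower (adjusted p = 0.00855). Without treated D5 replicate 1 or D4H8 replicate 1, 4 members were lower, and with the 6 treated libraries alone 2. RA pathway genes were split, 4 higher (23.5%) and 3 lower (17.6%) of 17, against 11.6% and 10.0% of all tested genes. The RA-binding protein *Crabp1* rose 5.23-fold, and the receptor *Rarg* and the RA-induced *Stra8* were 2.30-fold and 2.58-fold lower, both lost without D5 replicate 1 among others (adjusted p up to 0.0689 and 0.123). Without D5 replicate 1, 2 were higher and none was lower, without treated D4H8 replicate 1 or 3 or D5 replicate 3, 1 was lower, and without D5 replicate 2, 5 were.

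Proliferation genes fell. None of 32 mitosis genes was higher and 29 were lower (median -1.01), and none of 34 DNA replication and G1/S genes was higher and 24 were lower (median -0.84). In the untreated step all 32 and all 34 were lower (medians -1.21 and -1.24). *Cdk1*, the mitotic kinase, had 113, 108 and 150.5 CPM at treated D4H8 and 56.3, 77.6 and 80.2 CPM at treated D5. The groups did not overlap, and it was 1.74-fold lower (log2 -0.80 ± 0.22, adjusted p = 0.0167; 0.0842 without D5 replicate 1, and at most 0.0842 in the alternatives, D4H8 replicate 3 left out among them). *Bub1*, a spindle checkpoint kinase, had 129.5, 296 and 150.3 CPM and then 66.4, 73.8 and 86.8 CPM, 2.54-fold lower (adjusted p = 0.00363), with D4H8 replicate 2 the highest. The cytokinesis scaffold *Anln*, the kinetochore motor *Cenpe* and *Ndc80* of the kinetochore were 2.46-fold, 2.38-fold and 2.38-fold lower. Among replication genes, the polymerase *Pole* had 140.3, 241 and 134 CPM and 42.6, 77.4 and 71.5 CPM, 2.69-fold lower (adjusted p = 0.00132), and the origin-licensing factors *Cdc6*, *Mcm10* and *Mcm5* were 2.61-fold, 2.59-fold and 2.41-fold lower. Without D5 replicate 1, 18 mitosis and 12 replication genes were lower; without replicate 2, 27 and 25 were. The CDK inhibitors *Cdkn1c* and *Cdkn2d*, which hold neurons out of the cycle, rose 3.03-fold and 2.09-fold, *Cdkn1c* from 99.3, 69.5 and 87.0 CPM to 265, 254 and 256 CPM. *Cdkn1c* shares part of its transcript with *Gm44732*. *Cdk6* and *Ccnd3* were 2.21-fold and 1.99-fold lower, *Ccnd3* not without D5 replicate 1 (adjusted p = 0.0633); *Ccnd3* overlaps *Bysl* and has a processed copy.

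The promoters of the fallen mitosis genes were searched for motifs picked to go with this list. As 29 of its 32 members fell, the shares describe the list and not this step. Among the 23 called-lower mitosis genes with a RefSeq promoter entry, 16 (69.6%) held TTTGAA, the core of the cell cycle homology region, on either strand, against 17.9% of all promoters, and 17 (73.9%) held CCAAT, the NF-Y box, against 37.4%. A match is a description of the letters, not evidence of binding. Genes were counted by any of their windows and all promoters singly, so the shares are not like for like. The promoters of *Cdk1*, *Anln* and *Bub1* are shown because they differ in which of these motifs they hold: 2 TTTGAA and 3 CCAAT matches in *Cdk1*, 2 TTTGAA matches and no CCAAT in *Anln*, and 2 CCAAT matches and no TTTGAA in *Bub1*. All lie on the minus strand of the GRCm38.p6 build, at chr10:69352863-69353162, chr9:22389157-22389456 and chr2:127831810-127832109, run 5′ to 3′ on the gene's strand from 250 bases before to 50 bases after the start, and carry the motif on either strand in capitals (ATTGG and TTCAAA are the same motifs read from the other strand).
Cdk1: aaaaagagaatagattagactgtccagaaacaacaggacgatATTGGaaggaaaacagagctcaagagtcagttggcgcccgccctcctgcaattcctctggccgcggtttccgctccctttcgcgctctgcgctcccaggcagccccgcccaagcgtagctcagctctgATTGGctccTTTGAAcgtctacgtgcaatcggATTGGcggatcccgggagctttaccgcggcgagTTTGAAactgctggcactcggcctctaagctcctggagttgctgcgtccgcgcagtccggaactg
Anln: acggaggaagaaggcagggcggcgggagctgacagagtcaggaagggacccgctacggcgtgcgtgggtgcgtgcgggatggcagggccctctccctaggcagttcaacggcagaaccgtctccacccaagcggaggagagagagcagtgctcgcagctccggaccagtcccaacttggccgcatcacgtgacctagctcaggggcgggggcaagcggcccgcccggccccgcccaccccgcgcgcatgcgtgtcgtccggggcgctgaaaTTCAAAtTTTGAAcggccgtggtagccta
Bub1: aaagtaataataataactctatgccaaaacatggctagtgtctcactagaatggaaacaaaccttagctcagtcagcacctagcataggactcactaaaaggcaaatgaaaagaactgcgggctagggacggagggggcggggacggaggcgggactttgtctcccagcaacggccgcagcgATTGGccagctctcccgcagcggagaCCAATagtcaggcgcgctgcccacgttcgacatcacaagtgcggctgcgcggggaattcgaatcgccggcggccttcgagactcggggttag

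The metallothionein genes *Mt1* and *Mt2* and the zinc exporter gene *Slc30a1* fell. Of 20 metallothionein and zinc genes 6 were lower (30%, against 10.0% of all tested genes) and 2 higher (10%, against 11.6%), with a median of -0.54. In the untreated step 2 were lower and 1 higher (median -0.19). *Mt1*, a metal-binding protein induced by zinc, had 1033, 334 and 916 CPM at treated D4H8 and 116, 328 and 209 CPM at treated D5. Replicate 2 was the lowest at D4H8 and the highest at D5, and these libraries nearly met; the gene was 3.49-fold lower (log2 -1.80 ± 0.47, adjusted p = 0.0136; 0.0650 without D5 replicate 1). *Mt2* had 838, 332 and 823 CPM and then 83.6, 225 and 186 CPM, 4.03-fold lower (adjusted p = 0.0195; 0.0858 without D5 replicate 1, and also above the threshold without D4H8 replicate 3). *Slc30a1*, the zinc exporter of the plasma membrane, had 90.8, 102.3 and 77.9 CPM and 37.6, 42.0 and 37.4 CPM. Its groups were well apart, 2.32-fold lower (log2 -1.21 ± 0.19, adjusted p = 4.2e-04), and in untreated cultures its log2 fold change was 0.09; the difference between steps was -1.30 (adjusted p = 0.0865). The zinc importer *Slc39a4* was 2.41-fold lower (adjusted p = 0.0145; 0.0723 without D5 replicate 1). In the untreated libraries the mean CPM was 126 and 68.3 for *Mt1*, 104 and 58.2 for *Mt2* and 20.2 and 21.5 for *Slc30a1* at D4H8 and D5 in that order. Without D5 replicate 1, 3 of the list were lower and 1 higher.

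The metal response core TGCACNC or TGCGCNC was present on either strand in the promoters of 4 of 5 called-lower members with an entry (80.0%: *Mt1*, *Mt2*, *Slc30a1* and *Slc30a4*), against 25.7% of all promoters. *Slc39a3*, the 1 called-higher member with an entry, held it too, so the core was not confined to genes that fell. It was picked to go with this list. The windows of *Mt1* (chr8:94178839-94179138, 3 matches), *Mt2* (chr8:94172368-94172667, 4 matches) and *Slc30a1* (chr1:191906531-191906830, 2 matches), all on the plus strand of GRCm38.p6, are given as the members whose levels are described above, with the core in capitals (GNGTGCA and GNGCGCA on the other strand).
Mt1: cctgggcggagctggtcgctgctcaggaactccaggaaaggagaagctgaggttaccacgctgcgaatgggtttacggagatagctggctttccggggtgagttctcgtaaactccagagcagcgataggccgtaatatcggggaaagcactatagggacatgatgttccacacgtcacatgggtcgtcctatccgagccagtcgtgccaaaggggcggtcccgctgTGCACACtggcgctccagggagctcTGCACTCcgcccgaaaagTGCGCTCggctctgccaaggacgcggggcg
Mt2: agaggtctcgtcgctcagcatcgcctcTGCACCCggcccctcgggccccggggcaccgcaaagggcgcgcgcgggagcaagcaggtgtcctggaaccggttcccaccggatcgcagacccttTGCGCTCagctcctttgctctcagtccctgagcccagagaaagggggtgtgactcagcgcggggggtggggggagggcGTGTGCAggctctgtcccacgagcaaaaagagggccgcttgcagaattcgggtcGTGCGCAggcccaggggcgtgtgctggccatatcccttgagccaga
Slc30a1: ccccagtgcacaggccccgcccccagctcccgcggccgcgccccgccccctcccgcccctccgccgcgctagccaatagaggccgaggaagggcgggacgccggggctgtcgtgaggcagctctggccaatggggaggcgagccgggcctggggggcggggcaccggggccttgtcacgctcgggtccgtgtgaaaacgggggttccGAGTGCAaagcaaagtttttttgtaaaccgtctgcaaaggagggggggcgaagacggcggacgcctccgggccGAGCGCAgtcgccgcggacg

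Targets of p53 were lower or not called. Of 20 members 7 were lower (35%, against 10.0% of all tested genes) and none was higher (median -0.53). In the untreated step 1 was lower and 1 higher (median -0.00). *Ccng1*, cyclin G1, had 655, 844 and 451 CPM at treated D4H8 and 320.5, 226 and 256 CPM at treated D5, 2.43-fold lower (adjusted p = 7.7e-04). *Trp53inp1*, a pro-apoptotic p53 cofactor, had 435, 754 and 335 CPM and 246, 233 and 194 CPM, 2.26-fold lower (adjusted p = 0.00283). In untreated cultures their log2 fold changes were -0.01 and 0.01, and the differences between steps did not pass the test (adjusted p = 0.184 and 0.328). *Pmaip1*, the BH3-only protein Noxa, and *Perp* were 2.86-fold and 2.81-fold lower, whereas *Cdkn1a*, the p53-induced CDK inhibitor, was not called (log2 -0.47). In the Bcl2 family 3 of 15 genes were lower (20%, against 10.0% of all tested genes) and none was higher. The fallers were *Pmaip1*, *Bid* (1.76-fold), which overlaps *Bcl2l13*, and the survival factor *Mcl1* (1.63-fold).

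Cholesterol synthesis genes rose, 13 of 24 (54.2%, against 11.6% of all tested genes) with none lower (median 0.72). The untreated step had 3 higher and 1 lower (median 0.38), and the difference between the steps passed its own test for 0 of the 24. *Hmgcs1*, an early enzyme of the pathway, had 346, 427 and 265 CPM at treated D4H8 and then 1303, 856 and 727 CPM at treated D5, 2.78-fold (adjusted p = 0.00136). *Lss*, which closes the sterol ring, rose 2.69-fold and *Insig1*, a sterol-regulated brake on the pathway, 2.51-fold. Among 30 hypoxia and glycolysis genes 6 were higher (20%, against 11.6% of all tested genes) and 1 lower (3.33%, against 10.0%), with a median of 0.24. *Pfkp*, a phosphofructokinase that overlaps *Pitrm1* on the other strand, rose 3.92-fold, *Egln3* 3.57-fold and *Vegfa* 2.09-fold. ACGTG, the hypoxia response core, lay in the promoters of 4 of the 6 risers, against 19.6% of all promoters. It also lay in the promoter of *Slc2a1*, the 1 member called lower. Without D5 replicate 2, 10 of this list were higher, and without D5 replicate 1, 4. Of 24 integrated stress response genes 4 were higher (16.7%, not far from the 11.6% of all tested genes) and none lower (median 0.27). The risers were *Vldlr* (3.66-fold), a lipoprotein receptor that also acts in neuronal migration, *Pycr1* (1.93-fold), *Stc2* (1.9-fold) and *Ddit3* (1.85-fold), which overlaps *Mars*. Without treated D5 replicate 2 or treated D4H8 replicate 3, 2 were higher, and without treated D4H8 replicate 1, 7 were. The *Stc2* and *Ddit3* calls were among those lost (adjusted p up to 0.148 and 0.0621). The master regulator *Atf4* was not called (log2 0.04). Of 26 heat shock and ER chaperone genes 6 were lower (23.1%, against 10.0% of all tested genes), among them *Hyou1* (1.66-fold) and *Hsph1* (1.58-fold), and none was higher. Of 22 immediate early genes 5 were lower (22.7%), among them *Klf6* (2.36-fold) and *Dusp5* (2.50-fold), and none was higher (median -0.20). Without D5 replicate 1 each of these lists had 2 lower, and *Hsph1* was not called. Without D5 replicate 3 the chaperone list had 3 lower, and with the 6 treated libraries alone 1. Without treated D4H8 replicate 1 the immediate early list had 2 higher and 2 lower and a median of 0.11. Of 13 iron genes *Steap2* and *Ncoa4* were lower (15.4%, against 10.0% of all tested genes), by 1.86-fold and 1.70-fold. The *Ncoa4* call was lost without D5 replicate 3 (adjusted p up to 0.0926), and without treated D4H8 replicate 2, 4 iron genes were lower.

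**Figure D3:**
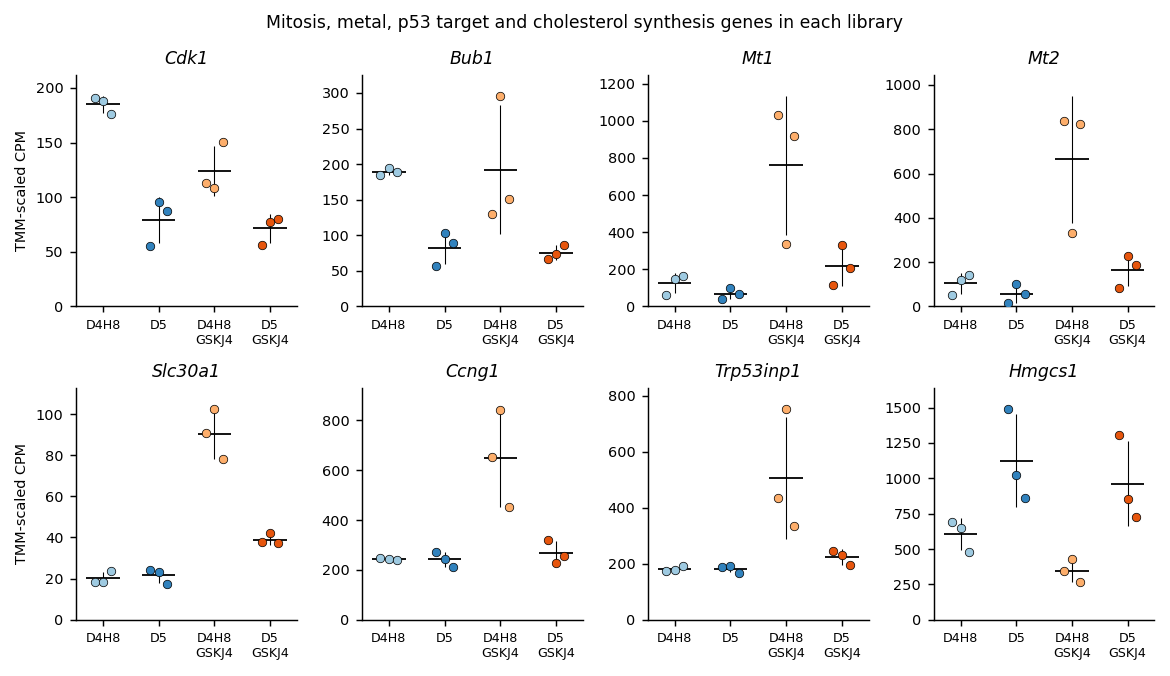
CPM (TMM-scaled, linear axes from 0) of mitosis, metal-related, p53 target and cholesterol synthesis genes in each of the 12 libraries, drawn as for the lineage genes (points are replicates 1 to 3, lines mean ± 1 SD). *Mt1*, *Mt2*, *Slc30a1*, *Ccng1* and *Trp53inp1* have their highest means in GSKJ4-treated D4H8, and *Cdk1* and *Bub1* are lower at D5 in both steps.

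The demethylase genes themselves were not called. *Kdm6b* had 279, 178 and 159.9 CPM at treated D4H8 and 302, 239 and 279 CPM at treated D5 (log2 0.41 ± 0.20, adjusted p = 0.154), and in untreated cultures its log2 fold change was 0.40. *Kdm6a* had 70.5, 99.2 and 63.7 CPM and 71.3, 58.3 and 62.3 CPM (log2 -0.28 ± 0.18, adjusted p = 0.302). Transcript level says nothing about enzyme activity under an inhibitor. Of 15 demethylase and PRC2 genes 5 were lower (33.3%, against 10.0% of all tested genes). These were the PRC2 core genes *Suz12* (1.75-fold) and *Eed* (1.55-fold), *Rbbp7* (1.67-fold), *Aebp2* and *Epop*. None was called lower without D5 replicate 1 or in the fit of the 6 treated libraries. Of the genes the study lists as Kdm6b-bound at D4H8, 874 of 5902 tested rose and 734 fell (14.8% and 12.4% of those tested). Of those bound at D5, 1232 of 7567 rose and 886 fell (16.3% and 11.7%). Over all tested genes the shares were 11.6% higher and 10.0% lower. That total includes the bound genes themselves, and the genes not bound were not counted apart. The median log2 fold changes of the 2 bound lists were -0.02 and 0.01.

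Genes that mark other cell types of the embryoid bodies were mostly not called. Of 20 pluripotency genes 5 were lower (25%, against 10.0% of all tested genes) and none higher. The number lower was 2 without treated D5 replicate 1 or treated D4H8 replicate 2. It was 3 without treated D4H8 replicate 3 or with the 6 treated libraries alone, and 10 with a replicate block or no filter. The summed level of the pluripotency genes was 894 to 999 CPM at treated D4H8 and 311 to 538 CPM at treated D5. *Lin28a* had 486, 319 and 389 CPM and then 184, 188 and 203 CPM, 2.08-fold lower (adjusted p = 8.0e-04), and *Sall4* was 2.58-fold lower; *Pou5f1* and *Nanog* were not called (log2 -0.72 and -1.12). Of 21 fibroblast genes, markers of the feeder layer, 2 were lower (9.52%, near the 10.0% of all tested genes), *Fbn1* (2.53-fold) and *Fn1* (1.88-fold). Without D5 replicate 1 *Fn1* was not called (adjusted p = 0.0596), and without D5 replicate 3, 4 were lower. The summed level went from 996 to 1071 CPM at D4H8 to 511 to 692 CPM at D5. Both sums were lower in each treated D5 library than in any treated D4H8 library, the same direction as the proliferation genes and opposite to the neuronal ones, and their part in those results was not tested. Of 16 tested interneuron factors 3 were higher (18.8%, against 11.6% of all tested genes), among them *Lhx1* and the V3 marker *Sim1* (log2 4.58). *Lhx2* was the 1 lower (6.25%, against 10.0%). None was lower without treated D5 replicate 1 or D4H8 replicate 1, and 1 was higher with the filter of 10 counts in every library. Of 10 tested glial genes 3 were higher (30%, against 11.6% of all tested genes), among them the glutamate transporter *Slc1a2* (5.04-fold) and *Mbp* (2.25-fold). *Glul* was lower, a call lost without treated D5 replicate 1 or 2 (adjusted p = 0.126 and 0.107), treated or untreated D4H8 replicate 3 and 4 other libraries. *Gfap*, *Aqp4*, *S100b* and *Sox10*, defining glial markers, were too low to be tested. Of 11 mesoderm and endoderm genes 1 was lower (9.09%), *Pecam1*, a call lost without treated D5 replicate 1 or 2 (adjusted p = 0.116 and 0.109), treated D4H8 replicate 2 or 3, or replicate 3 of either untreated group.

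Among the 12 genes with the largest falls, *Ahnak*, a large scaffold protein, had 314, 273 and 83.0 CPM at D4H8 and 34.8, 38.8 and 46.8 CPM at D5, 5.57-fold lower (log2 -2.48 ± 0.39, adjusted p = 4.8e-04), with D4H8 replicate 3 below the other 2. *Lrp2*, megalin, an endocytic receptor of the neuroepithelium, had 146, 212 and 140 CPM and then 22.6, 42.7 and 45.6 CPM, 4.50-fold lower (adjusted p = 2.5e-04), and it fell in untreated cultures too (log2 -1.67). *Prrg4*, *Kcnj4* and *Cobll1* were 4.43-fold, 4.84-fold and 4.93-fold lower. *Abcb1b*, a drug efflux transporter, had 19.1, 23.1 and 10.2 CPM and 2.97, 0 and 4.29 CPM, 7.17-fold lower (adjusted p = 0.0191). It was listed at 0 in D5 replicate 2, and without that library its log2 fold change was -2.26 (adjusted p = 0.00343); the call was lost without D5 replicate 1 or D4H8 replicate 2, and it shares sequence with *Abcb1a*. *Wnt7b* and *Flvcr2* were also at 0 in replicate 2, with log2 fold changes of -1.86 and -1.77 without it, and their calls held in 10 and 7 of 19 alternatives, failing without D5 replicate 1 among others (adjusted p = 0.107 and 0.142). *Mme* was nearly at 0 there (log2 -2.56, and -2.0 without it). *Rex2*, *Usp26* and *Zfp988* spread widely at D4H8, where *Rex2* had 3.85, 26.1 and 6.55 CPM. All of these lost the call without D5 replicate 1 (adjusted p = 0.0745, 0.0580 and 0.108), *Rex2* and *Zfp988* also without D4H8 replicate 2 and *Zfp988* without D5 replicate 2, and *Rex2* shares its sequence with *Zfp600* and *Zfp979*.

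The treated step was then set beside the untreated one, with which it shares no library. The log2 fold changes of the 2 steps had a Pearson correlation of 0.688 and a Spearman correlation of 0.619 across the 17408 tested genes, which are not independent replicates. Of the genes higher in the treated step 58.3% were also higher in the untreated step, and of those higher in the untreated step 75.7% were higher in the treated one (1174 genes). For lower genes the shares were 30.9% and 61.5% (539 genes). The 6 genes called higher in the treated and lower in the untreated step were *Neurog1*, *Hey2*, *Sfrp1*, *Pcdh18*, *Ackr3* and *Sox2ot*, and none was called the other way.

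**Figure D4:**
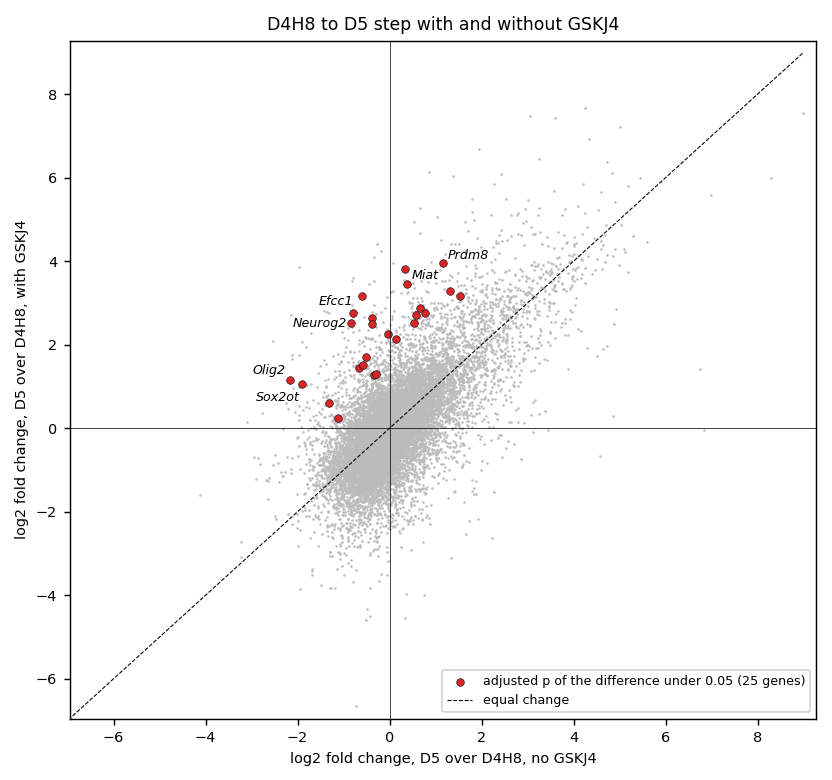
Log2 fold change (D5 over D4H8) of each tested gene in untreated (horizontal) and GSKJ4-treated (vertical) cultures; the dashed line marks equal change and red points are the 25 genes whose steps differed. All 25 lie above the line.

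The difference between the steps itself passed the test for 25 genes (0.144% of those tested), each with a more positive step in treated cultures, and for 0 genes in the other direction; at an unadjusted p under 0.05 there were 685 and 671 genes, DESeq2 called 105 and 30, and a block for replicate number gave 73 and 4. Without untreated D4H8 replicate 1 it held 2 genes, and without treated D4H8 replicate 1 it held 121. Of the tested members of the proneural, ventral progenitor, MN homeodomain and *Hox* lists 1 each was among the 25, and of the neuronal differentiation factors 0. The number was also 0 for the Notch, Hedgehog, metallothionein and zinc, p53 target and cholesterol synthesis lists. *Neurog2* differed by 3.36 ± 0.40 on the log2 scale (adjusted p = 0.00636), and *Olig2* by 3.33 ± 0.59 (adjusted p = 0.0452). *Miat*, a long noncoding RNA of neural tissue, had 219.5, 49.7 and 98.5 CPM at treated D4H8 and 1520, 1113 and 1406 CPM at treated D5, 11.0-fold, while the untreated step was 0.38 (difference 3.07, adjusted p = 0.0452). The POU factor *Pou3f2* had 21.2, 9.45 and 10.6 CPM and then 96.4, 61.0 and 73.5 CPM, 5.60-fold, against -0.38 without GSKJ4 (difference 2.86, adjusted p = 0.00983). *Efcc1*, a little-studied coiled-coil gene, had 2.37, 1.65 and 1.89 CPM and 13.1, 13.9 and 13.0 CPM, 6.74-fold (difference 3.54, adjusted p = 0.00636). *Prdm8*, a repressor of neuronal subtypes that overlaps *A730035I17Rik*, rose 15.4-fold, the glycine receptor subunit gene *Glra1* 6.25-fold and *Sox2ot*, the transcript that overlaps *Sox2*, 2.09-fold (adjusted p = 0.0223, and up to 0.154 where treated D4H8 replicate 2 or 3 or treated D5 replicate 2 was left out or the 6 treated libraries were fitted alone). The set also held the POU factor *Pou3f3*, the MN factor *Onecut1*, *Hoxd4*, the Wnt antagonist *Sfrp1*, the zinc finger factor *Sp8*, the fatty acid binding protein *Fabp5* and the chemokine receptor *Ackr3*. *Gm28230*, which had the largest difference, matches 96.3% of the length of a *Hoxd3* transcript.

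For these 25 genes the treated groups can be read against the untreated ones by their means, which share libraries with the steps and are given without a test. At D4H8 the mean CPM was lower in treated than in untreated cultures for 25 of 25, with a median log2 ratio of -2.43 (-3.97 to -1.17). At D5 the median log2 ratio was -0.14 (-0.80 to 0.50). Of the 25, 23 were called higher in the treated step, 4 were called higher and 5 lower in the untreated step. *Olig2* had mean CPM of 256 in untreated and 17.0 in treated D4H8, and 56.8 and 37.9 at D5. *Neurog2* had 101 and 6.47 at D4H8, and 56.8 and 37.4 at D5.

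**Figure D5:**
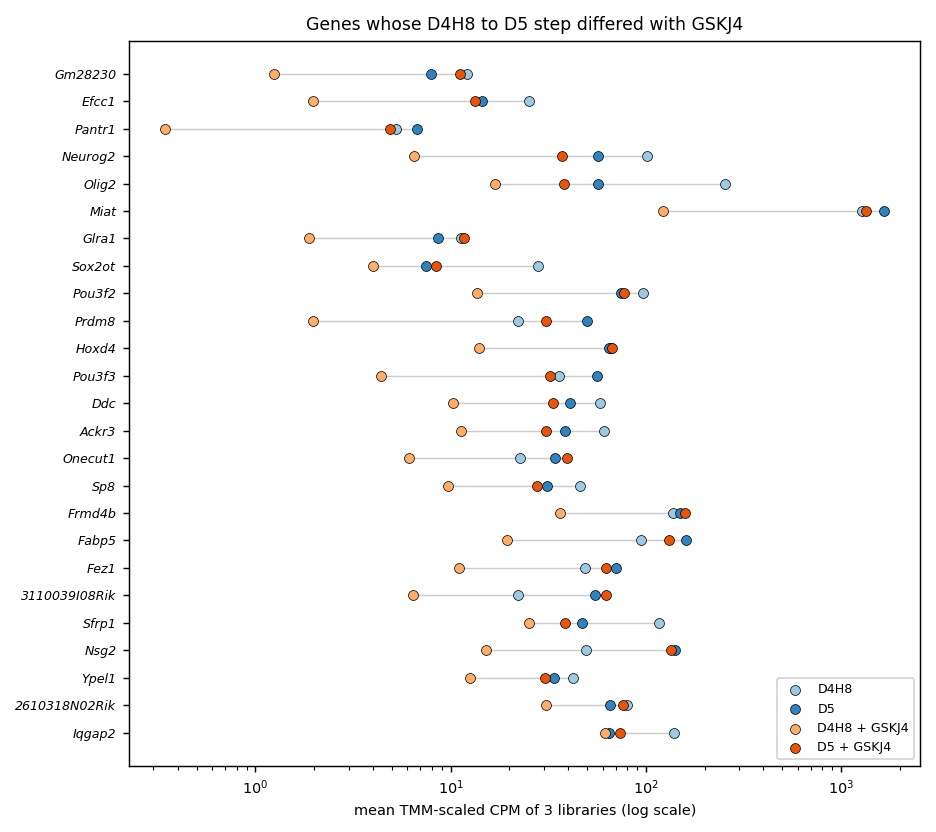
Mean CPM of 3 libraries (log axis) in each of the 4 groups for the 25 genes whose D4H8 to D5 step differed with GSKJ4, ordered by the size of the difference with the largest on top; gray lines span the 4 means. In every row GSKJ4-treated D4H8 is the lowest mean, while treated and untreated D5 lie close together.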

How the data were processed

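Bulk poly(A) RNA-seq of embryoid bodies was compared between GSKJ4-treated D4H8 and D5 cultures, with untreated D4H8 and D5 cultures beside them (3 libraries each). According to the study's methods and the submitters' processing notes, the authors trimmed reads with Fastp, aligned them to mm10 with Hisat2, and counted them with HTSeq-count. The deposited values used here are raw read counts per gene for 55400 genes, and the deposited FPKM, which the authors scaled to exonic length and library size; FPKM recomputed from the counts differed by at most 0.005. The counting strand was not given in the sources used here. Reads of *Prdm8*, *Irx3*, *Chrnb2*, *Hoxd3*, *Ccnd3*, *Rbbp7*, *Pfkp*, *Ddit3*, *Bid* and *Nefl* therefore cannot be separated from an expressed gene on the other strand. Sequence is shared with other genes of GENCODE M21 by *Abcb1b*, *Rex2*, *Hoxd3*, *Slc10a4*, *Cdkn1c*, *Ccnd3*, *Ncoa4*, *Glul*, *Rbbp7*, *Nefl* (in its overlap with *Nefm*) and *Fbn1*. Symbols were taken from the same release (55140 of 55400 identifiers matched). The annotation release of the authors was Ensembl-based and not the one used here.

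Counts of 12 libraries were filtered with filterByExpr (minimum count 10), TMM-scaled and fitted with edgeR 4.0.16 (R 4.3.3), with 1 mean per group and a quasi-likelihood test of the treated step, the untreated step and their difference, adjusted by Benjamini-Hochberg over 17408 genes. The procedure was also run on simulated counts. Their spread was smaller than that of these data and no library lacked low counts, so the run does not measure error rates here. Alternatives were DESeq2 1.42.0 (the authors' tool), other scalings and filters, other sets of libraries, a replicate block and leaving out each library. Pairs of libraries within a group differed far beyond sampling noise (mean chi-square per gene at least 6.44), so none was counted as a duplicate. Total counts set the counting error, and no interval is given for single libraries. Genes named are the 12 largest called rises and falls with a mean of at least 100 counts and no overlap of the treated groups, the 8 largest differences between steps, up to 4 called members of each list by size, and a fixed set of MN genes; other members were named after their values were seen, and some genes that the rule selects are not reported here. Members and lists were chosen with earlier results of these data known. Replicate numbers of the treated groups did not pair the libraries (see the correlations given with the replicate block), and samples of other stages were not used in the main comparisons. Promoter windows are from RefSeq tables of GRCm38.p6. Genes with several windows were counted as matching if any window did, while the shares over all promoters count each window once.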

Additional observations from a re-analysis of the deposited data

Results flagged for a closer look

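The D4H8 to D5 step differed between GSKJ4-treated and untreated cultures, by a test of the difference itself, for 25 genes. Those named here, 8 by size and *Hoxd4* from the list of *Hox* genes, were *Efcc1* (difference of log2 fold changes 3.54), *Neurog2* (3.36), *Olig2* (3.33), *Miat* (3.07), *Glra1* (3.03), *Sox2ot* (2.97), *Pou3f2* (2.86), *Prdm8* (2.78) and *Hoxd4* (2.29), each more positive in treated cultures. Over 19 alternatives the difference passed the threshold in 19 for *Efcc1* and *Neurog2*, in 17 for *Sox2ot* and *Pou3f2*, in 13 for *Hoxd4*, in 10 for *Olig2*, in 9 for *Miat* and *Glra1* and in 8 for *Prdm8*. *Sox2ot* and *Pou3f2* missed it without replicate 1 of untreated D4H8 or of untreated D5, and *Olig2* without any 1 of the untreated libraries or of the treated D5 libraries.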

How the results depend on the processing

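With the 6 treated libraries alone, 1162 genes were higher and 680 lower in the treated step, against 2013 and 1742. Leaving out 1 library of the 12 gave 1417 to 2207 higher and 853 to 1734 lower genes in the treated step, both minima without GSKJ4-treated D5 replicate 1, and 944 to 1894 higher and 369 to 1325 lower genes in the untreated step, whose counts left the 1.5-fold range for both directions without untreated D4H8 replicate 2 or 3 or D5 replicate 1, and for the lower genes alone without untreated D4H8 replicate 1 (497), D5 replicate 2 (561) or 3 (582) or treated D4H8 replicate 2 (1325). The number of genes whose steps differed moved most. In the direction of a more positive treated step it was 57 with all 21 libraries, 105 with DESeq2, 199 without a filter and 2 to 121 without 1 library, against 25; in the other direction it was 6, 30, 33 and 0 to 1 in the same order, against 0. Without 1 library the count of 25 became 2, 11 and 15 (untreated D4H8 replicates 1, 2 and 3), 6, 7 and 10 (untreated D5), 121, 17 and 12 (treated D4H8) and 9, 23 and 12 (treated D5). Of the 25 genes, 2 were still called without untreated D4H8 replicate 1, 25 without GSKJ4-treated D4H8 replicate 1 and 9 without GSKJ4-treated D5 replicate 1. The cause of these changes was not tested. Scaling by RLE or upper quartile and the stricter filter kept these counts within 1.5 times. No alternative turned the direction of a named gene in the treated step: of its values 2920 stayed on their side of the threshold, 176 no longer passed and 7 newly passed.

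The correlations of the deviations of same-numbered libraries between the treated groups were 0.07, -0.01 and 0.16, and 3 of the 6 treated libraries correlated best with their own number, so equal numbers were not taken as pairs; between the untreated groups they were 0.33, 0.17 and 0.14, and 6 of 6 did. With a replicate block 2214 genes were higher and 2018 lower in the treated step, 1770 and 1050 in the untreated step, and the steps differed for 73 and 4 genes, among them the 25. A count of 0 or a few reads limits low genes, and GSKJ4-treated D5 replicate 2, limits genes up to a mean of 186 counts in the other treated D5 libraries, the highest that was at 0 in it.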
